A study of Mus musculus with 12 samples.

Results

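Integrins are receptors at the cell surface, each made of 1 alpha and 1 beta subunit, that hold cells to the extracellular matrix and connect it to the actin cytoskeleton. Laminins are trimers of an alpha, a beta and a gamma chain. With the network-forming type IV collagens they build the basement membrane, the sheet of matrix under epithelia and the earliest matrix of the embryo. Fibrillar collagens such as those encoded by Col1a1, Col1a2 and Col5a1 form the fibres of connective tissue, and embryonic stem cells in culture both secrete laminin and attach to matrix through integrins.

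The rule for choosing genes used symbols alone. It took every gene whose single annotated symbol is that of a numbered integrin alpha or beta subunit, a laminin chain or a collagen chain. The rule was set with earlier results of these data known. The rule found 72 genes, represented by 147 probe sets, among the 18193 genes to which a probe set assigned 1 symbol. They were 11 integrin alpha, 9 integrin beta, 10 laminin and 42 collagen genes. Integrins with lettered symbols, such as Itgav, fell outside the rule and are described with the associated genes. Each gene was measured by the brightest of its probe sets over the 12 arrays.

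The arrays carried RNA of mouse embryonic stem cells that were either Tcf3+/+ (wild type) or Tcf3-/- (knockout), Tcf3 being the Tcf/Lef-family repressor now named Tcf7l1. Each genotype was hybridised after culture in control self-renewal medium and after culture with recombinant Wnt3a at 50 ng/ml for 24 h, with 3 arrays in each of the 4 groups. All groups grew without feeder cells on gelatin, in medium with 15% fetal bovine serum and 1000 U/ml Lif. The labels name no parental line, clone or separate culture. The genotype can therefore not be told apart from the line that carries it, and the p-values measure only the spread between these arrays.

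The knockout arrays had less Tcf7l1 signal than the wild-type arrays, at 9.47 ± 0.11 against 10.85 ± 0.07 in control medium and 9.10 ± 0.18 against 10.37 ± 0.15 with Wnt3a (log2 intensity, SD, n = 3). All 8 embryonic stem cell markers were above the level set for dim probe sets in every group. Their summed intensity was 71830 to 77620 on wild-type control arrays and 93080 to 95860 on knockout control arrays, and 86320 to 92850 and 98080 to 103400 in the same order with Wnt3a. The spiked dap control transcript read between 4.35 and 4.48 on the control-medium arrays and between 11.6 and 11.8 on the Wnt3a arrays. Medium and array preparation can therefore not be told apart, while the knockout was compared with wild type within each medium. The labels name no preparation, so whether the genotypes of a medium were prepared together is not known. With Wnt3a, dap read 11.69 to 11.82 on wild-type and 11.60 to 11.65 on knockout arrays. The actin 3' minus 5' signal, a measure of RNA integrity, was 0.21 and 0.35 (log2) in wild-type and knockout control arrays and 0.26 and 0.38 with Wnt3a. It was higher in knockout arrays in both media, and its part in the results was not tested.

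A gene was tested where its probe set exceeded a log2 intensity of 5.56, the 40th percentile of all values of non-control probe sets, on 3 or more arrays. Of the 72 genes, 51 passed, as did 77 of the 147 probe sets, and of all genes 13811 were tested. The tested genes were 8 integrin alpha, 6 integrin beta, all 10 laminin and 27 collagen genes. The 21 others were Itga2, Itga4, Itga7, Itgb2, Itgb6, Itgb8, Col3a1, Col4a3, Col4a4, Col6a5, Col8a2, Col10a1, Col11a1, Col11a2, Col14a1, Col15a1, Col17a1, Col19a1, Col23a1, Col24a1 and Col26a1. Lamb3, above the level on 3 arrays, was the gene closest inside the limit, and Itga7, Itgb8, Col11a2 and Col14a1, each above it on 2 arrays, lay just outside. Itgb8, the partner of Itgav in a receptor for latent transforming growth factor beta, read 6.22, 5.38 and 5.91 in wild-type control medium and between 3.76 and 3.93 in knockout control medium. With Wnt3a its values lay between 4.17 and 4.61 in wild type and between 3.55 and 3.97 in knockout. It is given here as values only. Some tested genes were above the level in 1 genotype only, namely Col1a1 (6 arrays) and Col5a2 (5), all wild type, Itga10 (4), all knockout, and Lamb3 (3), all wild-type control. Lama4 (4) and Col5a3 (4) were above it in control medium only. A call between the groups concerned is partly set by that filter and is read as no support.

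The upstream sequences of the beta subunit genes Itgb1 and Itgb5 are shown because both genes were lower in the knockout in both media. Each run is the 250 bases before the RefSeq transcription start (GRCm38.p6, plus strand), at chr8:128685404-128685653 for Itgb1 and chr16:33829415-33829664 for Itgb5. Capitals mark the GC box, GGGCGG on either strand, a motif added after the data were seen.
Itgb1: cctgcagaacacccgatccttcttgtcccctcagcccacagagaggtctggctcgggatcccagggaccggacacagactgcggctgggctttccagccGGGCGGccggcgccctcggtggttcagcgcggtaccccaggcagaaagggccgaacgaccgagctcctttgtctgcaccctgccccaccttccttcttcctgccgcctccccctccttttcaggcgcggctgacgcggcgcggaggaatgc
Itgb5: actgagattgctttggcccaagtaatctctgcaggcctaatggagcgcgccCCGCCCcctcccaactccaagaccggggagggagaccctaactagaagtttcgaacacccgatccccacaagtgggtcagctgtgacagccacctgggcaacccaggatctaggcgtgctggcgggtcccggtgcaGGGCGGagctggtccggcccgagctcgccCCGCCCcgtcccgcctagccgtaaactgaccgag
The Itgb1 window was 68.0% G and C with 1 GC box, and the Itgb5 window was 65.2% G and C with 3. Neither window held CTTTGA, the core letters bound by Tcf/Lef factors, its longer form CTTTGAT or the AP-1 motif TGANTCA, each searched on both strands. The table of 300-base windows, which run 50 bases past the start, held 59 windows for 53 of the 72 genes. Itga3, Itga8 and Col5a1, the other genes lower by 2-fold or more in knockout control medium, had no CTTTGA there. An Itga3 window held TGANTCA, as TGAATCA 12 bases past the start. CTTTGA was found in 13 of the 59 and in 16% of all 32851 windows, CTTTGAT in 1 against 3.73%, TGANTCA in 3 against 7.81% and the GC box in 32 against 35.7%. Every window with CTTTGAT also holds CTTTGA.

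In control medium, 19 of the 51 tested genes differed between knockout and wild type, 6 higher and 13 lower in the knockout. Called here means an adjusted p under 0.05 from limma, with Benjamini-Hochberg adjustment over all 13811 genes. The share was 37.3% of the members, beside 42.2% of all tested genes, of which 19.9% were higher and 22.3% lower. The median log2 difference was -0.014 over the 51 genes and 0.012 over all. The calls included 2 genes higher and 5 lower by 2-fold or more (2.4% and 4.24% of all tested genes). The arrays of the 2 groups did not overlap for 28 of the 51 genes and for 54.1% of all tested genes. The number of genes called was thus near the background, and the differences of 2-fold or more were in 4 integrins, 2 laminin alpha chains and 1 collagen.

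Integrin subunit genes made up 4 of the 5 genes that were lower by 2-fold or more. Itga3, whose product pairs with the Itgb1 product as a laminin receptor, read 11.26, 10.67 and 11.06 on wild-type control arrays and 9.47, 9.33 and 9.24 on knockout control arrays (log2 intensity). With Wnt3a it read 10.40, 10.20 and 9.80 in wild type and 9.18, 8.88 and 8.90 in knockout. The genotypes did not overlap in either medium. Itga3 was 3.14-fold lower in the knockout in control medium (log2 difference -1.65 ± 0.17 SE, adjusted p = 1.07e-05) and 2.21-fold lower with Wnt3a (-1.14 ± 0.17, adjusted p = 0.000428).

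Itgb1, the beta subunit that most alpha subunits of this group share, read 11.39, 11.15 and 11.22 on wild-type control arrays and 10.09, 10.22 and 10.00 on knockout control arrays. With Wnt3a its values were 11.04, 11.05 and 10.90 in wild type and 10.20, 10.39 and 10.27 in knockout. Every knockout array was below every wild-type array. The gene was 2.22-fold lower in control medium (-1.15 ± 0.08, adjusted p = 1.14e-06) and 1.64-fold lower with Wnt3a (-0.71 ± 0.08, adjusted p = 0.000114).

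Beside these lower integrin genes and the lower collagen genes, the 10 trophectoderm markers summed to 3227 to 3800 on wild-type control arrays and 2442 to 2580 on knockout control arrays. With Wnt3a they summed to 3373 to 3424 and 2170 to 2424. Of the 10, 8 were above the level in each wild-type group and 7 in each knockout group. The mean of Krt7 was 9.36 against 6.06 in control medium and 8.76 against 5.99 with Wnt3a, and that of Gata3 was 6.4 against 5.11 and 5.79 against 5.01. Eomes went the other way, at 7.73 against 8.12 in control medium and 7.75 against 8.43 with Wnt3a. Hand1 (7.29 and 6.93) and Ascl2 (7.63 and 7.56) were lower in knockout control medium. With Wnt3a they were higher in the knockout (6.97 and 7.02 for Hand1, 7.57 and 7.71 for Ascl2). The part of the trophectoderm markers in the integrin and collagen results was not tested.

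Itgb5, which pairs with the Itgav product as a receptor for vitronectin, read 9.92, 9.53 and 9.68 in wild-type and 8.48, 8.29 and 8.35 in knockout control medium. With Wnt3a it read 9.61, 9.18 and 8.93 in wild type and 7.91, 8.15 and 8.24 in knockout. The genotypes again did not overlap. Itgb5 was 2.53-fold lower in control medium (-1.34 ± 0.16, adjusted p = 3.11e-05) and 2.2-fold lower with Wnt3a (-1.14 ± 0.16, adjusted p = 0.000301). Its partner Itgav, not chosen by the symbol rule, read between 10.65 and 11.01 in wild-type control medium and between 9.52 and 9.63 in knockout control medium. Itgav was 2.31-fold lower there (adjusted p = 2.12e-06) and 1.63-fold lower with Wnt3a (adjusted p = 0.000322).

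Itga8, whose product joins the Itgb1 product as a receptor for nephronectin, showed another pattern across media. It read 8.30, 8.23 and 8.10 in wild-type control medium and 6.73, 6.18 and 6.07 in knockout control medium. With Wnt3a the values were 7.33, 6.78 and 6.30 in wild type and 5.95, 6.64 and 7.31 in knockout. The 3 wild-type control arrays stood above all 9 others, and the Wnt3a groups overlapped. The knockout was 3.69-fold lower in control medium (-1.88 ± 0.32, adjusted p = 0.000474), and the difference with Wnt3a was -0.17 ± 0.32 (adjusted p = 0.733). Npnt, the nephronectin gene, was 3.67-fold lower in the knockout in control medium (adjusted p = 6.04e-06) and 2.26-fold lower with Wnt3a (adjusted p = 0.000501).

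**Figure D1:**
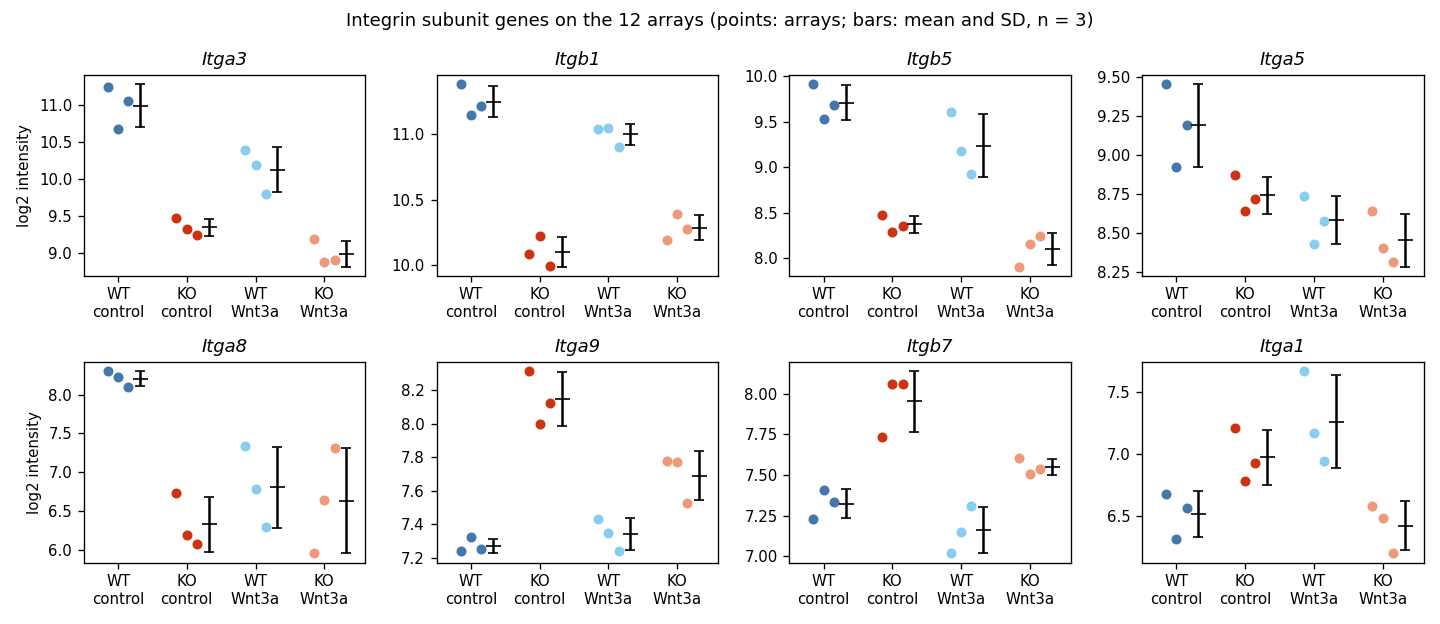
Log2 intensity of 8 integrin subunit genes on the 12 arrays, with points for arrays and bars for the mean and SD of 3 arrays in each genotype and medium (WT, wild type; KO, knockout). Itga3, Itgb1 and Itgb5 are lower on every knockout array than on every wild-type array in its medium, Itga9 and Itgb7 are higher on every knockout array, and each panel has its own vertical range.

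Among the tested members, the integrin genes called higher in the knockout in control medium were Itga9, Itgb7 and Itgb4. Itga9, whose product pairs with the Itgb1 product as a receptor for tenascin and other ligands, read 7.24, 7.32 and 7.25 in wild-type control medium against 8.32, 8.0 and 8.12 in knockout control medium. With Wnt3a it read 7.43, 7.35 and 7.24 against 7.78, 7.77 and 7.52. The groups did not overlap in either medium. Itga9 was 1.83-fold higher in control medium (0.87 ± 0.09, adjusted p = 1.66e-05) and 1.28-fold higher with Wnt3a (0.35 ± 0.09, adjusted p = 0.0156). The second of these was lost without wild-type Wnt3a array 3, knockout Wnt3a array 1 or knockout Wnt3a array 2 (adjusted p = 0.0518, 0.0514 and 0.0629). With probe sets tested one by one, 1 of the 3 Itga9 probe sets above the level was called with Wnt3a. The others differed by 0.035 and 0.15 (adjusted p = 0.768 and 0.116).

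Itgb7, a subunit best known from leukocytes, was 1.55-fold higher in control medium (adjusted p = 0.000298) and 1.31-fold higher with Wnt3a (adjusted p = 0.0123, or 0.0528 without wild-type Wnt3a array 1). Of its 2 known partners, Itga4 was under the level on every array. Itgae, outside the symbol rule, was 1.87-fold higher in knockout control medium (adjusted p = 9.62e-07) and 1.41-fold higher with Wnt3a (adjusted p = 0.000227). Itgal, a leukocyte alpha subunit, was 1.59-fold higher in control medium (adjusted p = 3.24e-05). Its known partner Itgb2 was not tested and read between 4.65 and 5.20. The 10 endothelial and haematopoietic markers summed to between 743.8 and 912.9 on wild-type control arrays and between 977.4 and 1129 on knockout control arrays, with 6 and 5 of them above the level. With Wnt3a the sums were 859.2 to 887.3 and 920.4 to 1084, and the part of those markers in the result was not tested.

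The remaining integrin calls in control medium were small. Itgb4, the hemidesmosome subunit, was 1.25-fold higher in the knockout (adjusted p = 0.0396), and 7 of the 12 single-array omissions ended the call, with wild-type control arrays 1, 2 and 3 (adjusted p = 0.0626, 0.0897 and 0.103), knockout control arrays 1 and 3 (0.15 and 0.0953), wild-type Wnt3a array 2 (0.053) and knockout Wnt3a array 2 (0.0517). Itga6, its laminin-binding partner, was 1.21-fold lower (adjusted p = 0.0215). Itga5, the alpha subunit of the main fibronectin receptor, was 1.37-fold lower (adjusted p = 0.0164). Where each probe set was tested, the second above the level was not called for Itga5 (-0.10, adjusted p = 0.493) or Itga6 (-0.14, adjusted p = 0.426). The Itga5 call failed with the omission of wild-type control array 1 (0.074) or knockout control array 2 (0.0608), and the Itga6 call without those arrays (0.0819 and 0.0673) or knockout control array 3 (0.0733). Itga2b, Itgb2l and Itgb3 were called in no comparison.

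The laminin genes differed in direction among themselves. Lama1, the alpha chain of the laminin first made by the embryo, read 7.91, 8.08 and 7.43 in wild-type control medium and 8.41, 10.23 and 8.88 in knockout control medium. With Wnt3a its values were 9.0, 9.23 and 9.69 in wild type and 9.89, 10.04 and 10.17 in knockout. The wild-type control arrays were lowest, and knockout control array 2 stood above every other array. Lama1 was 2.58-fold higher in the knockout in control medium (1.37 ± 0.36, adjusted p = 0.009). Without knockout control array 2 the difference was 0.84 (adjusted p = 0.0135). With Wnt3a the knockout difference was 0.72 ± 0.36 (adjusted p = 0.163), which became adjusted p = 0.0241 without that control array because the estimate of the spread is shared by all groups.

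Lama3, an alpha chain of epithelial laminin, read 7.19, 7.75 and 7.48 in wild-type and 8.61, 8.76 and 8.62 in knockout control medium. With Wnt3a it read 7.17, 7.71 and 8.02 in wild type and 8.07, 8.65 and 9.01 in knockout. The knockout arrays were higher than the wild-type arrays of their medium, although with Wnt3a by only a small gap. The gene was 2.28-fold higher in control medium (1.19 ± 0.24, adjusted p = 0.00168) and 1.92-fold higher with Wnt3a (0.94 ± 0.24, adjusted p = 0.0121).

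Lamb1 and Lamc1, the beta and gamma chains that join the Lama1 chain, were not called in the knockout comparisons. Lamb1 read 11.42, 11.38 and 11.30 in wild-type and 10.75, 11.58 and 10.92 in knockout control medium, a difference of -0.28 ± 0.18 (adjusted p = 0.227). Lamc1 read 9.73, 9.83 and 9.63 against 9.72, 10.28 and 9.81, a difference of 0.21 ± 0.15 (adjusted p = 0.318). In both genes knockout control array 2 was the highest of its group. A second Lamc1 probe set was called higher in the knockout in control medium (0.41, adjusted p = 0.00399) and lower with Wnt3a (-0.32, adjusted p = 0.0261), where probe sets were tested one by one. Lama4, the alpha chain of vessel walls, was lower in the knockout in control medium (-0.29 ± 0.09, adjusted p = 0.0255) by at least 1.22-fold, since the knockout mean was below the level. The Lama4 call failed when any 1 of knockout control arrays 2 and 3 (0.0838 and 0.101) or wild-type control array 1 (0.11) was left out. Lama5, the alpha chain most widespread in later embryos, differed by -0.11 ± 0.08 (adjusted p = 0.293) in control medium and was 1.19-fold lower with Wnt3a (adjusted p = 0.0351), a call lost without wild-type control array 3, any 1 of the wild-type Wnt3a arrays or knockout Wnt3a arrays 1 or 2 (adjusted p = 0.0512 to 0.106).

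Col4a1 and Col4a2 encode the chains of the main network collagen of basement membranes, and the 2 genes lie head to head with overlapping starts. Col4a1 read 10.59, 10.01 and 9.97 in wild-type control medium and 8.76, 10.93 and 9.32 in knockout control medium. Col4a2 read 10.00, 9.28 and 9.48 against 7.32, 9.82 and 8.37. In knockout control arrays 1 and 3 both genes were below all wild-type control arrays, whereas array 2 was above or among them. With all arrays the differences were -0.52 ± 0.40 for Col4a1 (adjusted p = 0.339) and -1.09 ± 0.44 for Col4a2 (adjusted p = 0.0689). Without knockout control array 2 they were -1.15 (adjusted p = 0.00113) and -1.75 (adjusted p = 0.000477), and Lamb1 was also called lower (-0.53, adjusted p = 0.00452).

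Knockout control array 2 exceeded the mean of the other 2 knockout control arrays by 1.98 (log2) for Col4a2, 1.89 for Col4a1, 1.58 for Lama1, 0.74 for Lamb1 and 0.51 for Lamc1. A gap of at least 1 was seen for 3 of the 51 members and for 0.253% of all tested genes. Knockout control array 1 lay lowest of the 3 for the same 5 genes. The 15 primitive, parietal and visceral endoderm markers summed to 1375, 6719 and 2698 on knockout control arrays 1, 2 and 3, against 1513 to 1835 on wild-type control arrays. The sums with Wnt3a were 1990 to 2784 in wild type and 3167 to 3922 in knockout. On knockout control array 2, Sox17 was 2.17 and Gata6 1.22 (log2) above the mean of the other 2 arrays, whereas Afp and Thbd were below the level in every group. Of the 15 markers, 12 were above the level in wild-type control medium and 13 in each other group. In RNA from a whole culture, more cells of a type and more RNA per cell cannot be told apart, and the part of the endoderm markers in the laminin and type IV collagen values was not tested.

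**Figure D2:**
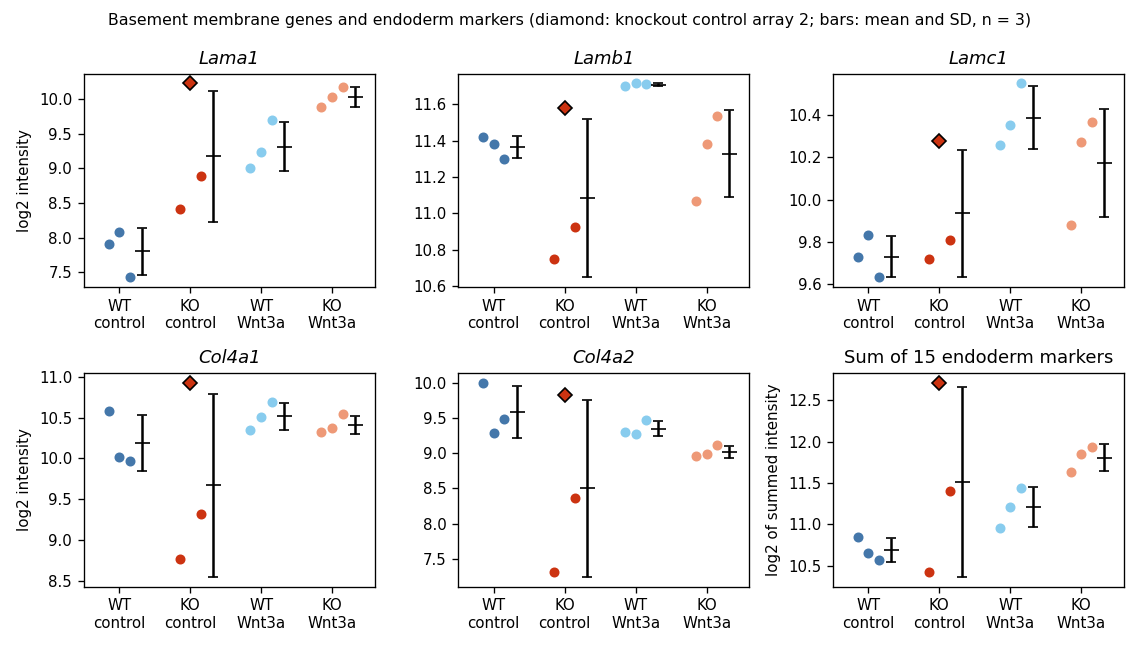
Log2 intensity of laminin and type IV collagen genes on the 12 arrays, with points for arrays and bars for the mean and SD of 3 arrays per group. Knockout control array 2 is the highest array of its group for Lama1, Lamb1, Lamc1, Col4a1 and Col4a2, with Lama1 at 10.23 against 8.41 and 8.88.

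Of the 27 tested collagen genes, 6 were lower and 1 was higher in the knockout in control medium, beside 22.3% and 19.9% of all tested genes. The share of collagens called lower was near that of all genes and is not a result about collagens. Col5a1, which encodes a chain that starts collagen fibrils, read 9.16, 8.61 and 8.96 in wild-type and 7.77, 7.98 and 7.57 in knockout control medium. With Wnt3a it read 8.36, 8.29 and 8.22 in wild type and 7.87, 7.71 and 7.71 in knockout. The genotypes did not overlap in either medium. Col5a1 was 2.2-fold lower in control medium (-1.14 ± 0.13, adjusted p = 2.82e-05) and 1.44-fold lower with Wnt3a (-0.53 ± 0.13, adjusted p = 0.0108). With probe sets tested one by one, 1 of the 3 Col5a1 probe sets above the level was called with Wnt3a. The others differed by -0.49 and -0.11 (adjusted p = 0.0949 and 0.559).

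The chains of type I collagen, the main collagen of connective tissue, were lower in both media. Col1a1 read 6.25, 5.65 and 6.11 in wild-type control medium and 5.48, 5.24 and 5.26 in knockout control medium, at least 1.36-fold lower (-0.68 ± 0.14, adjusted p = 0.00186). Col1a1 passed the filter only through the 6 wild-type arrays, so its place among the tested genes depended on the group where it was high. With no filter the Col1a1 calls were kept (adjusted p = 0.00186 in control medium and 0.00447 with Wnt3a). Col1a2 read 7.49, 7.10 and 7.5 against 6.32, 7.01 and 6.82, or 1.57-fold lower (-0.65 ± 0.17, adjusted p = 0.00949). With Wnt3a, Col1a1 was at least 1.19-fold lower (adjusted p = 0.00429) and Col1a2 1.6-fold lower (adjusted p = 0.0127). The Col1a2 call with Wnt3a was lost without wild-type Wnt3a array 2 (0.0522) or knockout Wnt3a array 2 (0.0543). The 15 fibroblast markers summed to 1017 to 1076 on wild-type control arrays and 1001 to 1092 on knockout control arrays, with 10 and 8 of them above the level. With Wnt3a the sums were 847.5 to 864.3 and 916.4 to 952.1. The median of the 15 markers was 6.34, 5.90 and 6.01 on wild-type control arrays and 5.70, 5.62 and 5.68 on knockout control arrays, with no overlap, and 5.80, 5.87 and 5.86 against 5.71, 5.48 and 5.39 with Wnt3a. In control medium the means of Twist1 (6.25 and 5.48), Twist2 (6.35 and 5.46) and S100a4 (6.59 and 6.04) were lower in the knockout, and those of Thy1 (6.56 and 7.42) and Mfap5 (7.49 and 7.84) were higher. The part of the fibroblast markers in the collagen results was not tested.

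Col4a5, a type IV chain of other basement membranes, read 6.49, 6.0 and 6.0 against 5.13, 5.83 and 5.22 in control medium, at least 1.52-fold lower in the knockout (adjusted p = 0.00336). It was 1.65-fold lower with Wnt3a (adjusted p = 0.00879). Its neighbour Col4a6 was called in no comparison. Col7a1, the chain of anchoring fibrils, was 1.86-fold lower in control medium (adjusted p = 0.00029) and differed by -0.40 ± 0.14 with Wnt3a (adjusted p = 0.0507). Col8a1 was at least 1.12-fold lower (adjusted p = 0.0139), a call lost without wild-type control array 3 (0.0556) or knockout control array 2 (0.0529). Col9a2, a cartilage collagen chain, was 1.29-fold higher (adjusted p = 0.00405). Col18a1, a basement membrane collagen, differed by -0.20 ± 0.13 (adjusted p = 0.263) in control medium.

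**Figure D3:**
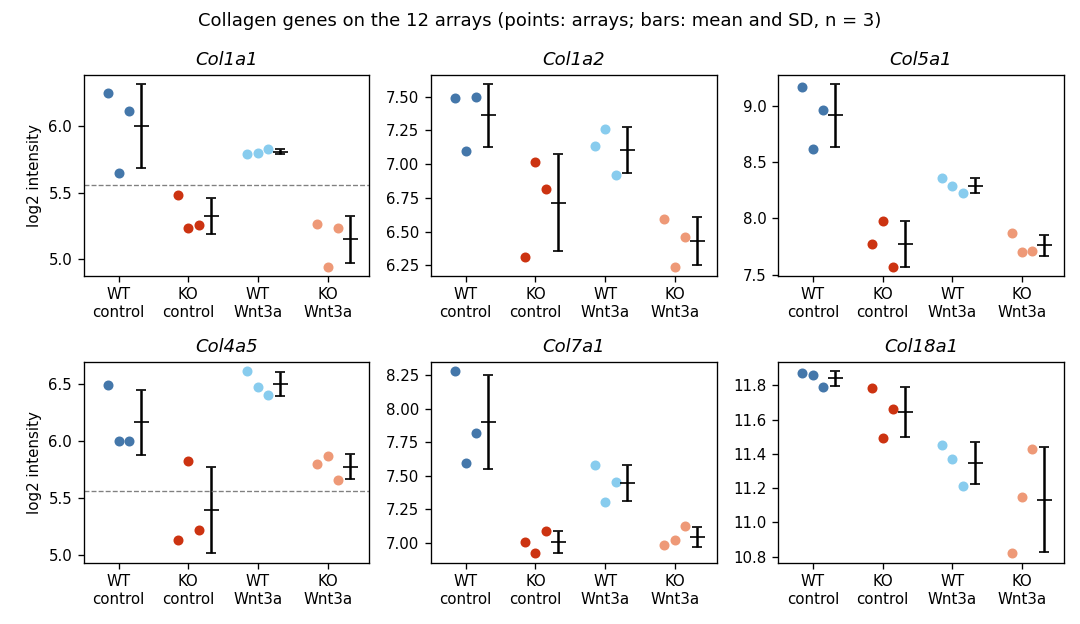
Log2 intensity of 6 collagen genes on the 12 arrays, with points for arrays, bars for the mean and SD of 3 arrays per group and a dashed line at the level of 5.56 where it falls in the range. Col5a1 is lower on every knockout array than on every wild-type array in its medium, and the knockout means of Col1a1 lie below the level.

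With Wnt3a in the medium, 17 of the 51 genes differed between knockout and wild type, 6 higher and 11 lower, beside 28% of all tested genes (13.2% higher and 14.7% lower). The 2 genes lower by 2-fold or more were Itga3 and Itgb5 and 0 were higher by as much, beside 2.17% and 0.891% of all tested genes. The groups did not overlap for 23 of the 51 genes and for 42.6% of all. Besides the genes above, Itga1, a collagen receptor subunit, was 1.79-fold lower (adjusted p = 0.00449). Col5a2 and Col6a1 were lower (adjusted p = 0.0169 and 0.0436), and Col13a1 was 1.51-fold higher (adjusted p = 0.00437). Col16a1 was 1.27-fold higher (adjusted p = 0.0382) and Itga10 was higher with both group means below the level (adjusted p = 0.00867). Without wild-type Wnt3a array 2 the number lower was 7 in place of 11, and the Col5a2 and Col6a1 calls were among those lost (adjusted p = 0.0669 and 0.163). For Col5a2, omitting wild-type Wnt3a array 1 also ended the call (0.0702). The Col16a1 call failed with the omission of control array 3 of either genotype, any 1 of the wild-type Wnt3a arrays or knockout Wnt3a arrays 1 or 3 (0.0523 to 0.129). For Col6a1, so did omitting wild-type control array 3, any 1 of the knockout control arrays, wild-type Wnt3a array 1 or knockout Wnt3a arrays 1 or 3 (0.0549 to 0.143).

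The knockout comparisons in the 2 media share no array. Of the genes shared, Col1a1 was tested only because of its wild-type arrays. Itga9, Itgb7 and Lama3 were higher in both, which is 50% of the members called higher in each medium. Itga3, Itgb1, Itgb5, Col1a1, Col1a2, Col4a5 and Col5a1 were lower in both, which is 53.8% of those called lower in control medium and 63.6% of those called lower with Wnt3a. Over all tested genes the corresponding shares were 47.9% and 71.8% for higher and 52.9% and 80% for lower. No member was called in opposite directions in the 2 media.

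**Figure D4:**
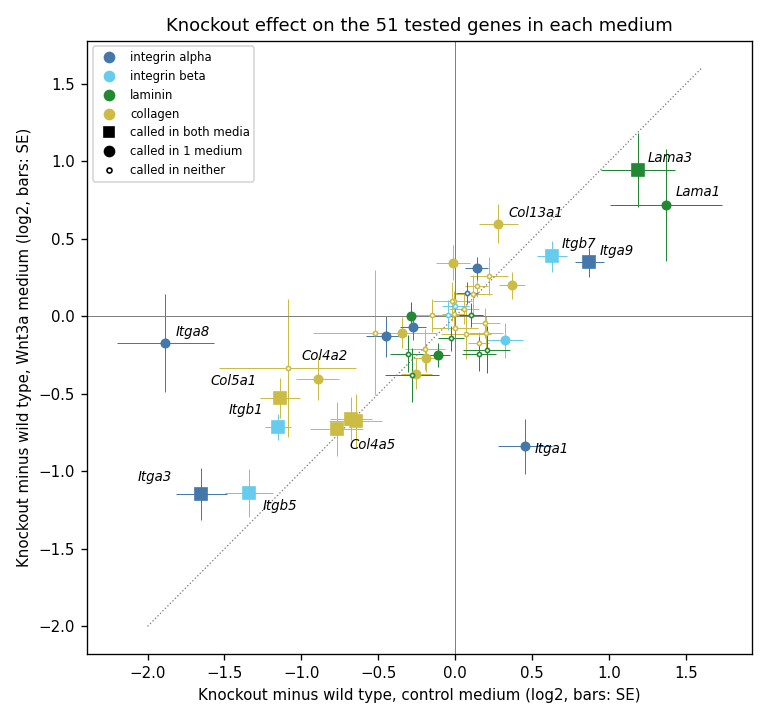
Log2 difference of knockout minus wild type for the 51 tested genes in control medium (horizontal) and Wnt3a medium (vertical), with colours for the 4 families, bars for the SE, squares for genes called in both media, filled circles for those called in 1, open circles for the rest and a dotted line of equal differences. Itga3, Itgb5 and Itgb1 lie low on both axes, Lama3 lies high on both, and Itga8 is at -1.88 in control medium and -0.17 with Wnt3a.

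Wnt3a treatment of wild-type cells was accompanied by 18 calls among the 51 genes, 4 higher and 14 lower, beside 41.5% of all tested genes (18.9% higher and 22.6% lower). By 2-fold or more, 1 was higher and 1 lower, beside 0.731% and 1.22% of all. The groups did not overlap for 24 of the 51 genes and for 52.8% of all. All 4 genes that were higher encode laminin chains or a collagen receptor subunit. Lama1 was 2.84-fold higher (1.51 ± 0.36, adjusted p = 0.00632), from the array values given above. Lamb2, a beta chain that can take the place of Lamb1, read 6.52, 6.52 and 6.41 in control medium and 7.40, 7.11 and 7.33 with Wnt3a, or 1.74-fold higher (0.80 ± 0.11, adjusted p = 0.000218). Lamc1 was 1.58-fold higher (0.66 ± 0.15, adjusted p = 0.00534), at 10.26, 10.35 and 10.55 with Wnt3a. Lamb1 read 11.70, 11.71 and 11.71 with Wnt3a, above all wild-type control arrays, and its difference of 0.34 ± 0.18 had an adjusted p of 0.138, or 0.0236 without knockout control array 2. Of the other 2 Lamb1 probe sets above the level, both were called higher (0.93 and 0.64, adjusted p = 0.00166 and 0.0285).

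Among the genes that were lower with Wnt3a in wild type, Itga8 was 2.65-fold lower (-1.41 ± 0.32, adjusted p = 0.00431) and Itga3 1.82-fold lower (-0.87 ± 0.17, adjusted p = 0.00173). Itga5 was 1.52-fold lower (adjusted p = 0.00367), Col5a1 1.54-fold lower (adjusted p = 0.00304), Col6a4 1.5-fold lower (adjusted p = 0.00299) and Col18a1 1.41-fold lower (adjusted p = 0.0103). Lama4 was at least 1.22-fold lower (adjusted p = 0.00013) and Col13a1 was 1.4-fold lower (adjusted p = 0.0095). Lama4 passed the filter only through control-medium arrays, and its adjusted p with no filter was 0.000125. Itga10, below the level in both groups, was lower too (adjusted p = 0.00231). Itgb1 was 1.19-fold lower (adjusted p = 0.0323) and Itgb5 1.39-fold lower (adjusted p = 0.0294). Neither call held with the omission of wild-type control array 1 (0.125 and 0.113), wild-type control array 3 (0.0625 and 0.0645), wild-type Wnt3a array 2 (0.0507 and 0.0809) or wild-type Wnt3a array 3 (0.114 and 0.118).

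Other probe sets of some of these genes gave no call. A second Itgb1 probe set differed by 0.24 with Wnt3a in wild type (adjusted p = 0.0691), opposite in sign, and was called higher with Wnt3a in knockout (0.59, adjusted p = 0.001). The same Itgb1 probe set was lower in the knockout in both media (-1.23 and -0.88). The other 2 Itga3 probe sets above the level differed by -0.26 and -0.21 with Wnt3a in wild type (adjusted p = 0.0854 and 0.31). A second Col18a1 probe set differed by -0.13 with Wnt3a in wild type and -0.26 in knockout (adjusted p = 0.482 and 0.187). For a second Col6a4 probe set these differences were -0.10 and -0.16 (adjusted p = 0.421 and 0.228).

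The other genes lower with Wnt3a in wild type were Col7a1, Col9a2 and Lamb3. Col7a1 was 1.37-fold lower (-0.45, adjusted p = 0.0223) and differed by -0.26 without wild-type control array 1 (adjusted p = 0.062). Its call was also lost without wild-type Wnt3a arrays 2 or 3 (0.0817 and 0.0504). Col9a2 differed by -0.24 (adjusted p = 0.0403) and by -0.16 without wild-type Wnt3a array 2 (adjusted p = 0.166). The Col9a2 call was also lost without any 1 of the wild-type control arrays, knockout control arrays 1 or 3 or wild-type Wnt3a array 3 (0.0518 to 0.0881). Lamb3 passed the filter only through the 3 wild-type control arrays, at 5.81, 5.64 and 5.60, and so had to be high there. Lamb3 differed by -0.32 (adjusted p = 0.0455, or 0.0496 with no filter), and its call was lost without any 1 of the wild-type control arrays, knockout control arrays 2 or 3, wild-type Wnt3a arrays 1 or 3 or knockout Wnt3a array 3 (0.0519 to 0.176). Without wild-type control array 1 or wild-type Wnt3a array 3, the number called lower was 9 in place of 14.

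In knockout cells, 12 of the 51 genes differed between Wnt3a and control medium, 2 higher and 10 lower, beside 28% of all tested genes (13.3% higher and 14.7% lower). By 2-fold or more, 0 were higher and 0 lower, beside 0.282% and 0.478% of all. The groups did not overlap for 20 of the 51 genes and for 43.8% of all. The 2 genes that were higher were Lamb2, at 1.32-fold (0.40 ± 0.11, adjusted p = 0.0192), and Col12a1, a fibril-associated collagen, at 1.17-fold (adjusted p = 0.0461). The Lamb2 call was lost without knockout control array 2 (0.0644), knockout Wnt3a array 1 (0.0506) or knockout Wnt3a array 3 (0.0571), and the Col12a1 call without any 1 of 10 arrays, all but wild-type control arrays 1 and 2 (0.0515 to 0.142). Other laminin probe sets were called higher here. A second Lamc1 probe set was higher by 1.09 (adjusted p = 1.28e-05), and by 1.83 in wild type (adjusted p = 1.16e-07), with a difference between these effects of -0.73 (adjusted p = 0.0152). Of the other 2 Lamb1 probe sets, 1 was higher by 0.72 (adjusted p = 0.0116) and the other differed by 0.53 (adjusted p = 0.0796). The 10 that were lower were Itga1, Itga9, Itgb7, Lama4, Col5a2, Col5a3, Col6a4, Col9a1, Col9a2 and Col18a1. Of these, Lama4 and Col5a3 passed the filter only through control-medium arrays. With no filter both calls were kept (adjusted p = 0.00555 and 0.0107). Col6a4 was 1.45-fold lower (adjusted p = 0.00767), Col18a1 1.43-fold (0.0134), Itga9 1.37-fold (0.00456) and Itgb7 1.32-fold (0.0112). The Col18a1 call was lost without knockout control array 1 (0.0529) and the Itgb7 call without knockout control array 3 (0.0526). Without knockout control array 3 the number lower was 6 in place of 10, and the Col9a1 and Col5a2 calls were among those lost (0.127 and 0.133). The Col5a2 call (adjusted p = 0.049) was kept only without wild-type control array 1, wild-type Wnt3a array 1 or wild-type Wnt3a array 3. Col9a1 differed by -0.34 (adjusted p = 0.038) and by -0.23 without knockout Wnt3a array 3 (adjusted p = 0.134), and omitting knockout control array 2 (0.0869), wild-type control array 3 (0.054) or knockout Wnt3a array 2 (0.0705) ended its call as well.

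Lama1, Col4a1 and Col4a2 were not called between media in knockout cells, with differences of 0.86 ± 0.36, 0.74 ± 0.40 and 0.51 ± 0.44 (adjusted p = 0.099, 0.191 and 0.418). Col4a1 read 10.33, 10.37 and 10.54 on knockout Wnt3a arrays and Col4a2 read 8.95, 8.98 and 9.11. Without knockout control array 2 the number called higher was 5 in place of 2. Lama1 was then higher by 1.38 (adjusted p = 0.00247), Col4a1 by 1.37 (adjusted p = 0.00141), Col4a2 by 1.17 (adjusted p = 0.0107) and Lamb1 by 0.49 (adjusted p = 0.0133). Col4a5 was the fifth (adjusted p = 0.0119).

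The difference of the Wnt3a effect between genotypes was called for 2 of the 51 genes, both in the negative direction, beside 4.08% of all tested genes (2.2% positive and 1.88% negative), and 11 of the 51 had an unadjusted p under 0.05. By 2-fold or more, 1 was negative and 0 positive, beside 0.304% and 0.319% of all. Itga1 read 6.68, 6.32 and 6.57 in wild-type control medium, 7.67, 7.17 and 6.94 in wild type with Wnt3a, 7.21, 6.78 and 6.93 in knockout control medium and 6.58, 6.48 and 6.20 in knockout with Wnt3a. It was 1.67-fold higher with Wnt3a in wild type (adjusted p = 0.00621) and 1.47-fold lower with Wnt3a in knockout (adjusted p = 0.0375). The difference between these effects was -1.29 ± 0.25 (adjusted p = 0.0204), and the call ended on omitting wild-type control array 3 (0.0562) or knockout control array 1 (0.0518). The call in knockout cells failed with the omission of wild-type control array 3, of knockout control arrays 1 or 3 or knockout Wnt3a arrays 2 or 3 (0.0517 to 0.133). Itga9 differed by -0.52 ± 0.13 (adjusted p = 0.0488), and the call was kept only without control array 2 of either genotype or knockout Wnt3a array 1 (otherwise 0.0649 to 0.123). Itga8 had the largest difference among the 51 genes, 1.71 ± 0.45 (adjusted p = 0.0542), and was called without wild-type Wnt3a array 1 (0.0237) or knockout Wnt3a array 1 (0.0184).

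Of the 51 genes, 34 were called in at least 1 of the 4 pairwise comparisons. The 17 called in none were Itga2b, Itgb2l, Itgb3, Lama2, Lamb1, Lamc3, Col2a1, Col4a1, Col4a2, Col4a6, Col6a2, Col6a3, Col9a3, Col20a1, Col22a1, Col25a1 and Col27a1. Of these, Col22a1 had a second probe set that was called higher with Wnt3a in wild type (0.88, adjusted p = 6.4e-05) and in knockout (0.55, adjusted p = 0.0028). With the mean of all its probe sets Col22a1 was called higher in both (0.34 and 0.24, adjusted p = 0.00204 and 0.0196). A second Col27a1 probe set was called lower with Wnt3a in wild type (-0.27, adjusted p = 0.0356). Other probe sets of Lamb1 were called higher with Wnt3a, as given above. For 19 genes 2 or more probe sets were above the level. No gene had probe sets called in opposite directions within a comparison, and all probe sets gave the same call for 16 of the 19 in the knockout comparison in control medium and 15 in that with Wnt3a. They did so for 9 of the 19 in the Wnt3a comparison in wild type, 11 in that in knockout and 17 in the difference between those effects. In the knockout comparison in control medium, Itga3, Itgb1 and Col5a1 were lower by all 3 of their probe sets above the level, and Itgb5 by all 4. With Wnt3a the knockout was again lower by all of these for Itga3, Itgb1 and Itgb5, and by 1 of 3 for Col5a1.

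The proteins that join integrins to actin were described from a list of 29 genes, of which 24 were tested. This list and those that follow were chosen with earlier results of these data known. Their counts beside the shares of all genes are therefore a description and are read as no support. In control medium 11 were lower and 3 higher in the knockout, with a median of -0.22, beside the 22.3% and 19.9% of all tested genes. Parva, the parvin that binds integrin-linked kinase, read 9.48, 8.55 and 8.93 in wild-type and 5.79, 6.13 and 5.89 in knockout control medium, 8.29-fold lower (adjusted p = 5.97e-07). The focal adhesion proteins Tgfb1i1 and Zyx were 4.96-fold and 4.35-fold lower (adjusted p = 3.5e-07 and 7.69e-07), and Ilk, integrin-linked kinase itself, was 2.96-fold lower (adjusted p = 1.46e-06). Parvb, another parvin, was 2.54-fold higher (adjusted p = 9.15e-06), and Tln2 and Tns3 were the other 2 genes called higher.

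Among 17 matrix receptors other than integrins, all tested, 9 were lower and 1 was higher in the knockout in control medium, beside the same 22.3% and 19.9%. Cd44, the hyaluronan receptor, was at least 2.82-fold lower (adjusted p = 7.03e-07), Lgals1 3.97-fold lower (adjusted p = 6.13e-07), the collagen receptor kinase Ddr1 2.98-fold lower (adjusted p = 4.82e-05) and Cd47 2.72-fold lower (adjusted p = 7.69e-07). Lgals3 was 2.28-fold higher (adjusted p = 8.53e-06).

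The basement membrane linkers, which tie laminin to collagen and to cells, went both ways. Of 12 tested, 4 were higher (Nid1, Nid2, Smoc1 and Fbln1) and 4 lower (Npnt, Frem2, Tinagl1 and Dag1) in control medium, beside 19.9% and 22.3% of all tested genes. Nid2, a nidogen that bridges laminin and type IV collagen, read 10.14, 10.17 and 10.08 in wild type and 11.28, 11.16 and 11.12 in knockout, 2.08-fold higher (adjusted p = 1.5e-05). On knockout control array 2, Nid2 differed from the mean of the other 2 arrays of its group by -0.039, where Lama1 differed by 1.58.

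Of 15 other matrix proteins tested, 7 were lower and 1, Fn1, was higher in control medium, beside 22.3% and 19.9% of all tested genes. Thbs1, thrombospondin 1, read 10.23, 9.43 and 9.72 in wild type and 5.53, 5.39 and 5.64 in knockout, at least 18.8-fold lower (adjusted p = 1.24e-07). Efemp1 was at least 5.51-fold lower (adjusted p = 0.00015), and the matricellular genes Ccn1 and Ccn2 were 4.81-fold and 3.17-fold lower (adjusted p = 6.06e-06 and 4.26e-06). Fn1, fibronectin, differed by 0.34 ± 0.13 (adjusted p = 0.0476), and this list had 0 genes called higher in 10 of the 12 single-array omissions, all but those of wild-type control array 1 and knockout Wnt3a array 1.

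Of 20 collagen-processing genes tested, 7 were lower and 5 higher in control medium, beside 22.3% and 19.9% of all tested genes, so that the share called higher was near the background. Serpinh1, the collagen chaperone, read 11.17, 10.23 and 10.53 in wild type and 8.27, 10.25 and 8.77 in knockout, 2.92-fold lower (adjusted p = 0.00638), with knockout control array 2 again the highest of its group. Bmp1, which trims procollagen, was 2.82-fold lower (adjusted p = 7.49e-07), and the cross-linking enzymes Loxl1 and Lox were 2.78-fold and 2.17-fold lower (adjusted p = 3.69e-05 and 0.000498). Those higher were P4ha1, P3h1, Crtap, Pcolce and Pcolce2. Without wild-type control array 3 the number higher was 3.

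Of 21 matrix proteases and inhibitors tested, 11 were lower and 2, Mmp11 and Htra1, were higher in control medium, beside 22.3% and 19.9% of all. Adamts1 was 5.02-fold lower (adjusted p = 6.37e-07), the inhibitors Timp2 and Timp3 were 3.86-fold and 3.51-fold lower (adjusted p = 6.84e-05 and 1.34e-06), and the membrane protease Mmp14 was 2.83-fold lower (adjusted p = 4.59e-07).

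With Wnt3a in the medium, the associated genes lower in the knockout were 11 of the 24 adaptors, 5 of the 17 other receptors, 5 of the 12 linkers, 8 of the 15 other matrix proteins, 4 of the 20 collagen-processing genes and 5 of the 21 proteases and inhibitors, beside 14.7% of all tested genes. Parva was 4.61-fold lower (adjusted p = 1.82e-05), Thbs1 at least 14.7-fold (2.45e-07), Ccn1 4.49-fold (2.85e-05), Bmp1 2.44-fold (7.76e-06), Timp3 3-fold (1.27e-05) and Mmp14 2.13-fold (1.27e-05). Of all tested genes, 13.2% were higher in the knockout with Wnt3a. Those higher in these lists were 2 adaptors (Parvb and Rsu1), Lgals3, 3 linkers (Nid1, Nid2 and Smoc1) and Emilin1. Also higher were 2 collagen-processing genes (Loxl3 and P3h1) and 3 proteases (Adam15, Adamts9 and Htra1). Several of these counts rested on single Wnt3a arrays. Without wild-type Wnt3a array 1 there were 0 adaptors, 1 linker, 0 other matrix proteins and 1 protease higher, and 3 linkers and 2 collagen-processing genes lower. Without knockout Wnt3a array 3 there were 0 adaptors, 1 linker and 1 protease higher. Without knockout Wnt3a array 2 there were 0 adaptors higher, and 3 linkers and 2 collagen-processing genes lower, and without wild-type Wnt3a array 2 there were 1 adaptor higher and 3 linkers lower. Without knockout Wnt3a array 1, 4 collagen-processing genes were higher and 2 lower. The single call among other matrix proteins was lost without any of these arrays except knockout Wnt3a array 3, and also without wild-type control array 3 or wild-type Wnt3a array 3. The adaptors had 1 call higher without wild-type control array 3.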

How the data were processed

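The 12 RNA samples were hybridised to Affymetrix arrays with 45101 probe sets. The authors deposited 1 value table of linear intensity per probe set and array, summarised with RMA per the submitters' processing notes (version not given in the sources used here). RMA includes quantile normalization, so a shift common to all genes would not be seen. The log2 of each deposited intensity was taken. Probe sets were named through the platform annotation: 34945 had 1 symbol, 932 had several and were left out, 9160 were not listed and 64 were controls.

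Each gene took its brightest probe set by the mean over 12 arrays. The 13811 genes above 5.56 on 3 or more arrays entered 1 linear model with a mean per group over all 12 arrays, moderated by limma's eBayes (limma 3.58.1, R 4.3.3), with 4 pairwise comparisons and their interaction, and Benjamini-Hochberg adjustment with a limit of 0.05. Where a group mean was below the level, the fold is a bound against that level and is written "at least". The fit was tested on simulated data. Intensities carry no read depth, so the number of arrays limits the precision (median SE of a log2 difference 0.0886). The labels describe no pairing of arrays by the replicate numbers of the titles, and 4 of 18 same-number pairs had correlated deviations over 0.1. Deviations from a mean of 3 arrays are tied to each other, so these correlations cannot exclude a pairing.

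Members named with values were those called with a log2 difference of at least 1, the 3 with the highest mean intensity per family, those called in the interaction and a fixed set of well-known chains, with up to 4 genes per associated list and comparison. Itgb8, Itgb7, Itgal, Itgae, Fn1, Nid1, the small calls and other genes named to complete a count fall outside that rule and were chosen after their values were seen. Members and lists were chosen with earlier results of these data known. Of the listed associated genes 14 had no probe set with 1 symbol, as had Itga11, Col6a6 and Col28a1, which are not analysed here. Alternatives covered the filter, the probe set choice, normalization, offset, prior, arrays in the fit, a replicate block and leaving out each array.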

Additional observations from a re-analysis of the deposited data

Results flagged for a closer look

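For 2 of the 51 tested genes the response to Wnt3a differed between genotypes by the interaction term of the limma fit. That share, 3.92%, was near the 4.08% of all tested genes. Neither call was kept in every alternative, and 0 members were called without wild-type control array 3 or knockout control array 1. Itga1 had a difference of -1.29 on the log2 scale (knockout response minus wild-type response, adjusted p = 0.0204), with a response of 0.74 in wild type and -0.55 in knockout, and every wild-type Wnt3a array above every wild-type control array while every knockout Wnt3a array lay below every knockout control array. Itga9 had a difference of -0.52 (adjusted p = 0.0488), with a response of 0.07 in wild type and -0.45 in knockout. Medium and array preparation cannot be told apart, and the part of preparation in either difference was not tested.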

How the results depend on the processing

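The called integrin, laminin and collagen genes kept their direction in every alternative that tested them. For the knockout in control medium, the 14 calls outside Itga5, Itga6, Itgb4, Lama4 and Col8a1 also kept an adjusted p under 0.05 in each such alternative. In the other comparisons 9 of 17 (knockout with Wnt3a), 12 of 18 (Wnt3a in wild type), 5 of 12 (Wnt3a in knockout) and 0 of 2 (interaction) did so. A gene that an alternative did not test was not counted as lost there. The stricter filter left Col1a1 and Col9a2 untested. Under it, 9 in place of 13 members were lower and 5 in place of 6 higher for the knockout in control medium. For Wnt3a in wild type, the members called higher were 7 in place of 4 under median centring and under repeated quantile normalization, and those lower were 8 in place of 14 under the stricter filter, which tests fewer genes. For Wnt3a in knockout, 5 in place of 10 were lower under the stricter filter. The number higher was 1 in place of 2 with the replicate block, no filter, the trend and robust prior, or only the arrays compared. In the interaction, 1 in place of 0 was positive under no filter, the stricter filter, the offset of 16 and the trend and robust prior, and 1 in place of 2 was negative with the replicate block, no filter or median centring. The replicate block also ended the calls of Itgb4, Col16a1, Col6a1, Col5a2 with Wnt3a in knockout, Col12a1 and the Itga9 interaction. The labels describe no pairing by the numbers of the titles, and 4 of the 12 arrays correlated best with their own number. Such correlations cannot exclude a shared culture or day. Leaving out 1 array at a time gave 5 to 7 members higher and 10 to 15 lower for the knockout in control medium, 4 to 7 and 7 to 12 for the knockout with Wnt3a, 4 to 6 and 9 to 15 for Wnt3a in wild type, 0 to 5 and 6 to 12 for Wnt3a in knockout, and 0 to 3 and 0 to 2 for the interaction. Over all genes, the share of calls that were higher with Wnt3a went from 45.61% to 61.5% in wild type and from 47.52% to 66.3% in knockout under median centring. Taking the mean of all probe sets turned the Wnt3a difference in wild type of Itgav from -0.52 to 0.055 (adjusted p = 0.482) and that of Vcl from -0.35 to 0.18 (adjusted p = 0.252), and the cause was not tested. Counts of the associated lists moved in 186 of 1526 alternatives.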
